A study of Mus musculus with 6 samples.

Results

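The factors described here are 10 transcriptional regulators that establish and run the brown adipocyte programme: Prdm16, Ebf2, Zfp516, Pparg, Cebpa, Ppara, Esrra, Esrrg, Ppargc1a and Ppargc1b. They were picked by gene symbol, and all 10 had a row among the 23282 gene rows of every count file. All 10 passed the filter on low counts, which left 12995 genes for testing. Levels were compared between brown adipose tissue (BAT) of 3 wild-type and 3 Letmd1 KO mice.

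All 6 animals were male C57BL/6N mice of 5 weeks of age, and no treatment is recorded for either genotype. Letmd1 encodes a LETM1 domain protein of the mitochondrial matrix, and Letmd1 KO mice lacked it in the whole body, not in adipocytes alone. The KO line goes back to a single embryonic stem cell clone with a knockout-first allele, in which an intronic cassette carrying lacZ and a neomycin resistance gene disrupts Letmd1. The comparison asked whether loss of Letmd1 changed the RNA level of the regulators that define brown fat. Letmd1 itself had 5658, 6490 and 5266 counts in wild-type mice and 0, 0 and 1 counts in Letmd1 KO mice, so each library matched its genotype label.

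Brown adipocytes arise from dermomyotomal precursors in which EBF2 and PRDM16 favour the brown over the muscle and white programmes, and ZFP516 acts at the Ucp1 gene together with PRDM16. PPARγ, encoded by Pparg, and C/EBPα, encoded by Cebpa, drive adipocyte differentiation itself. PPARα and the estrogen-related receptors ERRα and ERRγ, encoded by Ppara, Esrra and Esrrg, bind the genes of fatty acid oxidation and the respiratory chain. PGC-1α and PGC-1β, encoded by Ppargc1a and Ppargc1b, bind no DNA themselves and raise transcription by docking on these receptors.

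Libraries held 6669577 to 14574273 counts, and 3 counts corresponded to 0.176 to 0.397 CPM (counts scaled to a common library total) after scaling by edgeR's trimmed mean of M-values (TMM). Reads came from the 3′ ends of transcripts, so a count does not grow with transcript length and CPM of different genes can be set side by side, apart from differences in priming between 3′ ends. TMM factors lay between 0.852 and 0.886 in wild-type libraries and between 1.135 and 1.168 in Letmd1 KO libraries. Dividing by library size alone therefore shifted the middle of the log2 fold changes over all genes (the median) from 0.03 to 0.45, and the share of calls that were higher in Letmd1 KO BAT from 51.6% to 81.2%. With TMM, 46.0% of all genes tested passed an adjusted p of 0.05 in either direction, 22.3% as lower and 23.7% as higher in Letmd1 KO BAT. Libraries of a genotype differed from each other by more than sampling noise. The labels do not state whether each library came from its own litter or dissection day, so effects of litter or day cannot be told apart from genotype. The p-values rest on the spread between these mice, which edgeR moderates over all genes.

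Upstream sequence is given for 3 of the 4 factors that fell in Letmd1 KO BAT, each of which has a single start site in the RefSeq table. Of the 10 factors, 7 had a promoter in that table. Each sequence holds the 250 bases before the start site on the gene's own strand, in build GRCm38.p6. The genes themselves span chr7:35119293-35121928 (Cebpa), chr4:154316125-154636873 (Prdm16) and chr19:6910977-6921813 (Esrra) in the GENCODE annotation of the same build. Capitals mark matches, on either strand, to one of 10 letter patterns: TNAAGGTCA (ERR element), TGACGTCA (cyclic AMP element), TGATGNAA (amino acid response type), CCCNNGGGA (EBF type), CACGTG (E-box), GGGCGG (GC box), GCATGCGC (NRF1 type), TTGCGNAA (C/EBP type), CCAAT (bound by NF-Y and here called CCAAT box) and the DR1 motif of PPAR and RXR.
Cebpa, chr7:35119043-35119292, plus strand: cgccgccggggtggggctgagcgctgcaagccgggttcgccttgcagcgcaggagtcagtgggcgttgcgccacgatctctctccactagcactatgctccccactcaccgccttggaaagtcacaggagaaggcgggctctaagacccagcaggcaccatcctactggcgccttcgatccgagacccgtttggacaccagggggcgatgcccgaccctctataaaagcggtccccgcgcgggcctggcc
Prdm16, chr4:154636874-154637123, minus strand: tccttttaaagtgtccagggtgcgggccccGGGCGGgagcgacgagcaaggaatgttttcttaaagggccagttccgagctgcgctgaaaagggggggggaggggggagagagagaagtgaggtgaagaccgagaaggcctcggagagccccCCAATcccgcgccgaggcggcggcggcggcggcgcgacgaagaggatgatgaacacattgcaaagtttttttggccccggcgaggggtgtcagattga
Esrra, chr19:6921809-6922058, minus strand: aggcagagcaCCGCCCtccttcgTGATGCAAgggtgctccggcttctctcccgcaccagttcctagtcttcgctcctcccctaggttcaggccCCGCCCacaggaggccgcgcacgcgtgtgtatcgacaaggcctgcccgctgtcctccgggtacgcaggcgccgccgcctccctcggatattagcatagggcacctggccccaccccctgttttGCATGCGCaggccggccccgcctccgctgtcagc
The Cebpa window held no exact match to any of the 10 patterns, and sites that differ from these letters were not searched for. The Prdm16 window held a GC box at -220 to -215 and a CCAAT box at -98 to -94, counted from the start site. The Esrra window held GC boxes at -240 to -235 and -157 to -152, the amino acid response type at -227 to -220 and the NRF1 type at -34 to -27. Among the 250-base windows of 32851 promoters, 32.7% held a GC box, 33.8% a CCAAT box, 3.45% the amino acid response type and 2.26% the NRF1 type. The remaining patterns were in 1.14% (ERR element), 1.55% (cyclic AMP element), 5.6% (EBF type), 6.02% (E-box), 0.67% (C/EBP type) and 0.0335% (DR1) of them. The NRF1 type pattern can overlap its own reverse complement, as it did in the Ppara window at -31 to -24 and -29 to -22. G and C made up 66.4% of the Cebpa window, 62.4% of the Prdm16 window and 68.4% of the Esrra window, above the median of 52.4% over all windows.

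Of the 10 factors, 4 were lower in Letmd1 KO BAT (Cebpa, Prdm16, Ppargc1b and Esrra), 1 was higher (Zfp516) and 5 did not pass the test (Ebf2, Pparg, Ppara, Esrrg and Ppargc1a). Over all genes tested 22.3% were lower and 23.7% higher. The log2 fold changes of the factors ran from -1.43 to 0.56, with a median of -0.49. The levels of the 2 genotypes did not overlap for 6 of the 10 factors, against 57.3% of all genes tested, so non-overlap was about as common among the factors as among genes at large. With quantile normalisation and limma, 3 factors were lower and 0 higher, next to 3078 lower and 2713 higher of all 12995 genes.

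**Figure D1:**
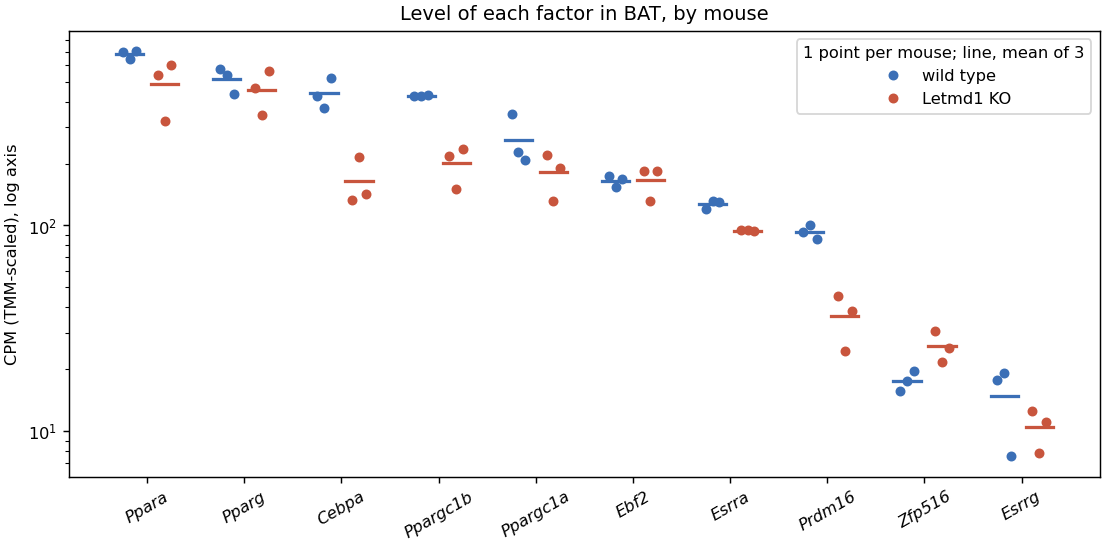
Level of each factor in every mouse, in TMM-scaled CPM on a log axis, with wild-type mice in blue, Letmd1 KO mice in red and a line at the mean of 3 mice. Prdm16, Cebpa and Ppargc1b show the widest gaps between genotypes, and the points of Ebf2 and Pparg overlap.

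Among the lineage factors, Prdm16 fell, Ebf2 did not pass the test and Zfp516 rose. Prdm16, a zinc finger coregulator that holds brown adipocytes in their identity, was at 93.4, 100.7 and 85.8 CPM in wild-type BAT and at 45.4, 24.5 and 38.6 CPM in Letmd1 KO BAT. The lowest wild-type mouse thus stood well above the highest KO mouse. Its mean went from 93.3 ± 7.46 to 36.2 ± 10.7 CPM (SD, n = 3 per genotype), a 2.57-fold reduction, with a log2 fold change of -1.36 (SE 0.20, edgeR adjusted p = 0.000541). Ebf2, which opens chromatin at brown-selective genes and recruits PPARγ there, was at 175, 153 and 167 CPM in wild-type BAT and at 184, 132 and 184 CPM in Letmd1 KO BAT. The KO range enclosed the wild-type range, and the log2 fold change was 0.02 with a 95% interval from -0.31 to 0.34 (edgeR adjusted p = 0.937), which leaves out a change of the size seen for Prdm16. Under library size alone Ebf2 was called higher, with a log2 fold change of 0.44 (adjusted p = 0.0295), close to the median of all genes in that setting (0.45). The 3′ end of Ebf2 is covered by the antisense gene Gm10860, which was not analysed here, and without strand their reads cannot be told apart.

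Zfp516, a zinc finger activator of the Ucp1 promoter, was the only one of the 10 called higher. It was at 15.6, 17.5 and 19.7 CPM in wild-type BAT and at 30.8, 21.8 and 25.4 CPM in Letmd1 KO BAT. Every KO mouse lay above every wild-type mouse, though KO mouse 2 exceeded wild-type mouse 3 by little. The log2 fold change was 0.56 (SE 0.17, edgeR adjusted p = 0.0223). Without wild-type mouse 1 or 2, or KO mouse 1 or 3, the log2 fold change was still 0.43 to 0.58, but the adjusted p was between 0.0556 and 0.094. It also missed the threshold under quantile normalisation with limma (log2 fold change 0.46, adjusted p = 0.0662).

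Of the adipogenic factors, Cebpa fell and Pparg did not pass the test. Cebpa was at 427, 371 and 519 CPM in wild-type BAT and at 133, 216 and 142 CPM in Letmd1 KO BAT. All KO mice were below all wild-type mice, with KO mouse 2 nearest to them. The mean fell from 439 ± 74.9 to 164 ± 45.1 CPM, 2.69-fold, at a log2 fold change of -1.43 (SE 0.20, edgeR adjusted p = 0.000423). Pparg, the receptor without which no fat cell forms, was at 578, 536 and 433 CPM in wild-type BAT and at 464, 344 and 563 CPM in Letmd1 KO BAT. These ranges overlapped widely. The log2 fold change of Pparg was -0.18 with a 95% interval from -0.59 to 0.24 (edgeR adjusted p = 0.47). Its sign turned under library size alone (0.25, against a median of 0.45 over all genes) and under quantile normalisation (0.22).

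Among the receptors of oxidative genes, Esrra was lower, while Ppara and Esrrg did not pass the test. Ppara, the receptor that responds to fatty acids, was the most abundant of the 10 factors, at 699, 645 and 700 CPM in wild-type BAT and 538, 321 and 604 CPM in Letmd1 KO BAT. All KO mice lay below all wild-type mice, but the KO mice were spread 30.3% around their mean (coefficient of variation), against 4.65% in wild-type mice. The log2 fold change of -0.48 (SE 0.21) had an adjusted p of 0.0844 in edgeR. DESeq2 called it (adjusted p = 0.0411), as did edgeR without KO mouse 3 (-0.66, adjusted p = 0.0336). The log2 fold change was -0.25 without KO mouse 2 (adjusted p = 0.0969) and -0.05 with quantile normalisation (adjusted p = 0.872). With library size alone it was also -0.05 (adjusted p = 0.84), against a median of 0.45 over all genes.

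Esrra encodes ERRα, which drives genes of the tricarboxylic acid cycle and the respiratory chain with the PGC-1 coactivators. It was at 121, 132 and 131 CPM in wild-type BAT and at 94.7, 94.9 and 93.8 CPM in Letmd1 KO BAT. The KO mice were nearly alike and all lay below the wild-type mice, and the log2 fold change was -0.43 (SE 0.10, edgeR adjusted p = 0.00517). The call depended on scaling, since library size alone gave -0.02 (adjusted p = 0.908), against a median of 0.45 over all genes, and quantile normalisation -0.24 (adjusted p = 0.0651). The 3′ end of Esrra overlaps that of Trmt112 on the opposite strand by 73 bases, and the sources used here do not say whether strand was used in counting. Reads of the pair may therefore be mixed, and Trmt112 showed a log2 fold change of 0.19 (adjusted p = 0.252). Esrrg, the ERRγ gene, was the least abundant factor, at 17.7, 19.3 and 7.56 CPM in wild-type BAT and 12.5, 7.81 and 11.1 CPM in Letmd1 KO BAT. Wild-type mouse 3 was below all 3 KO mice. The log2 fold change of -0.50 (SE 0.33, edgeR adjusted p = 0.243) reached -0.82 (adjusted p = 0.0157) without that mouse. It was -0.29 without wild-type mouse 2 (adjusted p = 0.565) and -0.35 without KO mouse 2 (adjusted p = 0.46). With library size alone it was -0.09 (adjusted p = 0.843), against a median of 0.45 over all genes.

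Of the coactivators, Ppargc1b fell and Ppargc1a did not pass the test. Ppargc1b, which sustains baseline mitochondrial gene expression, was at 423, 426 and 432 CPM in wild-type BAT and at 217, 150 and 236 CPM in Letmd1 KO BAT. The wild-type mice were within a few CPM of each other and far above the KO mice. The mean went from 427 ± 4.28 to 201 ± 45.4 CPM, a 2.12-fold reduction with a log2 fold change of -1.08 (SE 0.16, edgeR adjusted p = 0.000601). Ppargc1a, the cold-inducible coactivator, was at 349, 227 and 207 CPM in wild-type BAT and at 221, 132 and 191 CPM in Letmd1 KO BAT. KO mouse 1 lay above wild-type mouse 3, so the ranges overlapped. The log2 fold change of -0.52 (SE 0.23) had a 95% interval from -1.04 to -0.01 and an adjusted p of 0.0906 in edgeR. It passed with DESeq2 (adjusted p = 0.0472) and without wild-type mouse 3 (adjusted p = 0.0467). It was smaller without wild-type mouse 1 (-0.26, adjusted p = 0.346) and with quantile normalisation (-0.23, adjusted p = 0.437). With library size alone it was -0.10 (adjusted p = 0.738), against a median of 0.45 over all genes.

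**Figure D2:**
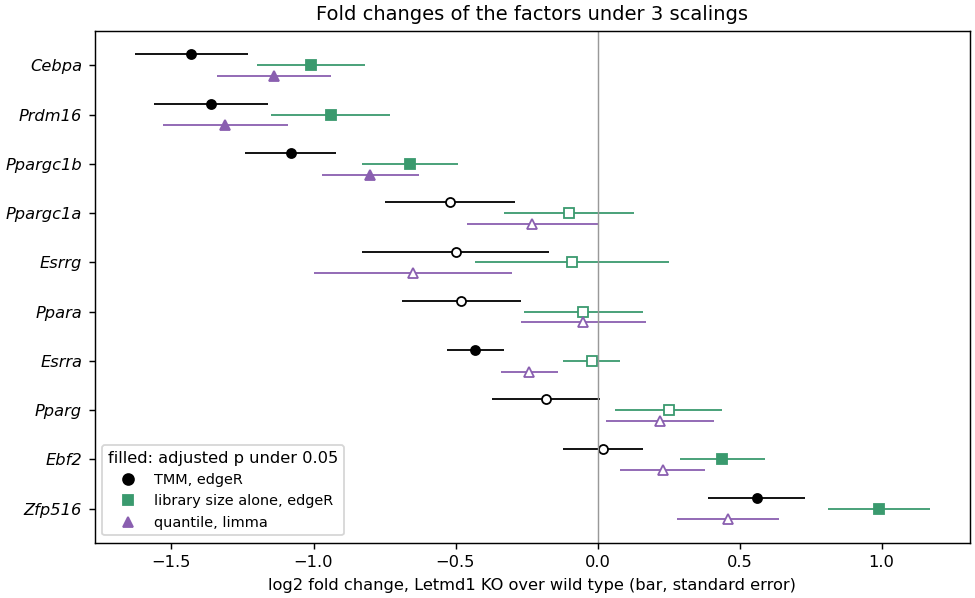
Log2 fold change of each factor, Letmd1 KO over wild type, with its standard error under TMM scaling with edgeR (black), library size alone with edgeR (green) and quantile normalisation with limma (purple), filled where the adjusted p was under 0.05. Cebpa, Prdm16 and Ppargc1b are filled and negative under all 3, while Esrra, Ebf2 and Zfp516 are filled under some only.

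The order of levels among the factors differed between the genotypes. In wild-type BAT the order of mean CPM was Ppara (681), Pparg (516), Cebpa (439), Ppargc1b (427), Ppargc1a (261), Ebf2 (165), Esrra (128), Prdm16 (93.3), Zfp516 (17.6) and Esrrg (14.8). The neighbours Pparg and Cebpa, Cebpa and Ppargc1b, and Zfp516 and Esrrg overlapped between mice, and the other neighbouring pairs did not. In Letmd1 KO BAT Cebpa stood at 164 CPM behind Ppargc1b (201), Ppargc1a (181) and Ebf2 (167), and each neighbouring pair among these 4 overlapped. Ppara and Pparg overlapped at the top in Letmd1 KO BAT, and the ranges of Prdm16 and Zfp516 also met.

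Ratios of CPM within a mouse do not depend on the scaling of its library. For some pairs of factors the ratios were apart between genotypes, and for others they overlapped. The Ebf2 to Prdm16 ratio was 1.87, 1.52 and 1.95 in wild-type BAT and 4.06, 5.38 and 4.78 in Letmd1 KO BAT, with no overlap. The Pparg to Cebpa ratio was 1.35, 1.45 and 0.834 in wild-type BAT and 3.48, 1.59 and 3.95 in Letmd1 KO BAT, where KO mouse 2 lay close to the wild-type mice. For Pparg to Ppara the means were 0.759 ± 0.122 and 0.954 ± 0.106, and the lowest KO mouse (0.861) was just above the highest wild-type mouse (0.832). The Ppargc1a to Ppargc1b ratio overlapped between genotypes, at 0.823, 0.532 and 0.481 against 1.02, 0.882 and 0.808, as did the Esrra to Esrrg ratio. These ratios are given as descriptions, without a test.

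**Figure D3:**
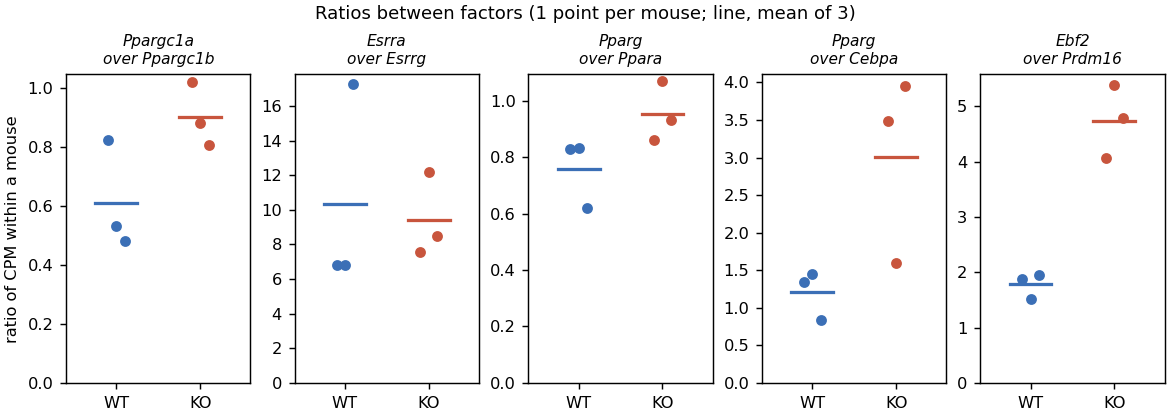
Ratio of the CPM of pairs of factors within each mouse, on linear axes from 0, with wild-type mice in blue, Letmd1 KO mice in red and a line at the mean of 3 mice. The Ebf2 to Prdm16 ratio separates the genotypes most clearly, from at most 1.95 in wild-type BAT to at least 4.06 in Letmd1 KO BAT.

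KO mouse 2 was set apart within its genotype. It had the lowest level of the 3 KO mice for 8 of the 10 factors (Prdm16, Ebf2, Zfp516, Pparg, Ppara, Esrrg, Ppargc1a and Ppargc1b) and the highest for Cebpa and Esrra, whereas over all genes tested it was lowest for 35.4% and highest for 38.5%. It also had the fewest counts of the 6 libraries (6669577). Among the lists of targets described further on, KO mouse 2 was the lowest KO mouse for 10 and the highest for 0 of 12 ERR-type targets, and the lowest for 11 and the highest for 3 of 17 brown adipocyte markers. For PPARγ-type targets it was the lowest for 0 and the highest for 16 of 18, and for PPARα-type targets the lowest for 8 and the highest for 8 of 20. Without KO mouse 2 the log2 fold changes of Cebpa and Prdm16 stayed called, as they did when any other single mouse was left out, within -1.67 to -1.30 and -1.55 to -1.16.

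BAT is a mixture of cells, and in bulk RNA fewer adipocytes and less RNA per adipocyte cannot be told apart. All 9 adipocyte markers of a marker list were lower, their summed level going from 46400–52550 CPM in wild-type BAT to 14650–19300 CPM in Letmd1 KO BAT, with a median log2 fold change of -1.42. All 9 also stand in the lists of brown markers or targets described further on, so they are not a separate measure, and Fabp4 made up 55.3% to 65.5% of their sum in single mice. With quantile normalisation 7 of the 9 were lower and 1 higher, at a median of -0.82. All 13 macrophage markers were higher, from a sum of 185–262 to 1522–3681 CPM, and so were all 10 fibroblast and progenitor markers, from 1547–2086 to 4212–7030 CPM. KO mouse 2 had the highest sum of both. Endothelial markers summed to 611–724 CPM in wild-type BAT and 416–541 CPM in Letmd1 KO BAT. Of these 10 markers, 3 were lower, 1 was higher and 6 were not called, next to 22.3% lower and 23.7% higher among all genes. Schwann cell markers summed to 301–319 and 427–598 CPM. Of the 8 tested, 7 were higher by edgeR and 4 with quantile normalisation and limma. S100b, also in the list of brown markers, held 186, 157 and 238 CPM of the sum in wild-type BAT. It was not called by edgeR (0.34, adjusted p = 0.228). Of 8 lymphocyte markers, 6 had under 3 counts in some mouse and the 2 tested were both higher (Nkg7, 1.59, adjusted p = 0.0239, and Cd4, 1.70, adjusted p = 0.046), with a sum of 2.7–4.43 CPM in wild-type BAT and 6.0–12.4 CPM in Letmd1 KO BAT. With quantile normalisation and limma 0 of these 2 were called, at a median of 0.86. Smooth muscle markers summed to 275–306 and 318–329 CPM, and erythroid markers to 9963–18520 and 10000–13670 CPM. Skeletal muscle markers, of which 9 of 15 had under 3 counts in some mouse, summed to 84.4–504.6 CPM in wild-type BAT and 360–1320 CPM in Letmd1 KO BAT, with wild-type mouse 2 and KO mouse 3 highest in their genotype. Myl1 (log2 fold change -0.04, adjusted p = 0.933) held 77.0, 130 and 91.3 CPM of the sum in wild-type BAT and 63.3, 70.9 and 154 CPM in Letmd1 KO BAT. Of the 14 muscle markers tested, 3 were higher and 0 lower by edgeR, at a median of 2.28. With quantile normalisation and limma 10 were higher and 0 lower, at a median of 3.63, next to 2713 higher of all 12995 genes. The part of these cell types in the changes of the 10 factors was not tested. With the muscle level added to the model, Cebpa, Prdm16, Ppargc1b and Esrra (-0.48, adjusted p = 0.0496) remained called and Zfp516 did not (0.57, adjusted p = 0.152). That level, a mean log2 CPM of the muscle markers, was -0.75, 3.85 and -0.70 in wild-type mice and 3.79, 3.57 and 5.4 in Letmd1 KO mice. It largely followed genotype, so this model cannot tell muscle and genotype apart.

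Partners of the factors had log2 fold changes centred near those of all genes. Of 18 receptor partners and coactivators, 3 were lower (Perm1, Ep300 and Rxrb) and 2 higher (Prmt1 and Ncoa1) in Letmd1 KO BAT. Their median log2 fold change was -0.03. Among all genes 46.0% were called, and a difference between these shares was not tested. Perm1, a regulator of ERR-dependent genes in muscle, went from 32.2 ± 5.53 to 16.2 ± 7.72 CPM (log2 fold change -0.96, adjusted p = 0.0256), and Prmt1, an arginine methyltransferase, from 50.6 ± 12.0 to 75.1 ± 5.3 CPM (0.57, adjusted p = 0.0195). Rxra, the heterodimer partner of the PPARs, showed a log2 fold change of -0.46 (adjusted p = 0.0681), Pprc1, the third PGC-1 family gene, 0.50 (adjusted p = 0.261) and Crebbp, an acetyltransferase, -0.02 (adjusted p = 0.94). Under library size alone, which shifts all genes upwards (5899 of 12995 higher and 1368 lower), the list read 0 lower and 8 higher. Leaving out 1 mouse left between 1 and 4 calls, next to 4842 to 5868 over all genes.

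Of 12 corepressors and repressors of the brown programme, 3 were lower and 0 higher, at a median of 0.01, next to 22.3% lower and 23.7% higher among all genes. By edgeR 9 of the 12 were not called, and at an unadjusted p under 0.05 Rbl1 and Zfp423 were higher, 2 in all. Tle3, which competes with PRDM16 for PPARγ, was at 82.1, 47.9 and 54.5 CPM in wild-type BAT and 27.4, 29.5 and 23.9 CPM in Letmd1 KO BAT (log2 fold change -1.20, adjusted p = 0.00127). Twist1, an inhibitor of PGC-1α, fell by 0.94 on the log2 scale (adjusted p = 0.0367) and Hdac3, a histone deacetylase, fell by 0.47 (adjusted p = 0.0264). Rbl1, encoding p107, showed a log2 fold change of 0.88 (adjusted p = 0.0548), Zfp423, a keeper of white fat identity, 0.50 (adjusted p = 0.0516) and Ncor1, a receptor corepressor, -0.13 (adjusted p = 0.366). With the upward shift of library size alone 1 was lower and 7 were higher, and with quantile normalisation 3 were lower and 2 higher.

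Among 25 tested of 26 other transcription factors of brown fat and adipogenesis, 8 were lower and 6 higher, with a median of -0.26. Among all genes 22.3% were lower and 23.7% higher. Thrb, a thyroid hormone receptor, fell by 1.56 on the log2 scale (adjusted p = 3.95e-05) and Cebpb, which acts with PRDM16 in precursors, fell by 1.13 (adjusted p = 0.0003). Klf11, a PPARγ-dependent factor, rose from 8.53 ± 3.14 to 33.0 ± 8.24 CPM (1.95, adjusted p = 0.000504) and Lhx8, a brown lineage homeobox gene, from 1.92 ± 0.384 to 5.22 ± 2.04 CPM (1.42, adjusted p = 0.0177). Klf9, on a level of 766 ± 275 CPM in wild-type BAT, showed a log2 fold change of -0.24 (adjusted p = 0.46). Under library size alone 4 were lower and 8 higher, next to 1368 lower and 5899 higher of all 12995 genes.

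Of 8 factors of mitochondrial biogenesis, 3 were lower and 1 higher, near the 46.0% of all genes called. Tfb2m, a mitochondrial transcription factor and known target of the PGC-1 axis, went from 79.9, 83.3 and 68.7 CPM in wild-type BAT to 16.1, 18.8 and 13.2 CPM in Letmd1 KO BAT, a log2 fold change of -2.28 (adjusted p = 1.18e-05). Tfam, which packages mitochondrial DNA, fell by 0.63 (adjusted p = 0.0022). Nrf1, an activator of nuclear genes for mitochondria, rose from 13.4 ± 3.09 to 23.4 ± 2.68 CPM (0.81, adjusted p = 0.00786). Tfb1m showed a log2 fold change of 0.46 (adjusted p = 0.105), and Yy1 -0.22 (adjusted p = 0.286). Under library size alone the list had 1 lower and 4 higher, next to 1368 lower and 5899 higher of all 12995 genes.

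In 4 lists of brown markers and of targets of the factors, most genes tested were lower in Letmd1 KO BAT, against 22.3% of all genes. Of 17 brown adipocyte markers, 14 were lower and 2 higher, at a median of -2.07 (-1.41 with quantile normalisation). Ucp1, the uncoupling protein of thermogenesis, was at 6268, 5841 and 6874 CPM in wild-type BAT and 415, 255 and 476 CPM in Letmd1 KO BAT (log2 fold change -4.05, SE 0.25, adjusted p = 6.96e-06). Slc27a2, a fatty acyl-CoA synthetase, fell by 6.15 (adjusted p = 1.54e-05) and Acot11, an acyl-CoA thioesterase, fell by 5.13 (adjusted p = 3.31e-06). In the other direction Epsti1 showed a log2 fold change of 1.88 (adjusted p = 0.000512) and Fabp3, a fatty acid carrier also high in muscle, 1.46 (adjusted p = 0.00167).

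Of 18 PPARγ-type adipocyte targets, 13 were lower and 1 higher, at a median of -1.33, while Pparg itself was not called. Library size alone gave 11 lower and 4 higher, and quantile normalisation 10 lower and 4 higher at a median of -0.67. Gpd1, the glycerol phosphate dehydrogenase of triglyceride synthesis, fell by 3.06 (adjusted p = 3.41e-06) and Dgat2, which forms triglyceride, fell by 2.44 (adjusted p = 1.14e-05). Fabp4, the abundant fatty acid carrier of adipocytes, went from 28020 ± 2260 to 10460 ± 2070 CPM (-1.42, adjusted p = 0.000592). Angptl4, an inhibitor of lipoprotein lipase, rose by 1.17 (adjusted p = 0.000352), and Lpl, lipoprotein lipase, showed a log2 fold change of 0.26 (adjusted p = 0.318).

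Of 20 tested of 21 PPARα-type targets of fatty acid oxidation, 13 were lower and 2 higher, at a median of -1.43 (-0.92 with quantile normalisation). Ucp3, a mitochondrial carrier, fell by 1.95 (adjusted p = 9.61e-05) and Acadl, long-chain acyl-CoA dehydrogenase, fell by 1.41 (adjusted p = 4.43e-05). Cpt1a, the carnitine palmitoyltransferase of liver type, went from 8.52, 8.38 and 6.26 CPM in wild-type BAT to 34.2, 45.9 and 34.1 CPM in Letmd1 KO BAT (2.29, adjusted p = 2.38e-05). Acot1 fell by 3.51 (adjusted p = 0.000446) and Acot2 rose by 2.37 (adjusted p = 1.26e-05), but these thioesterase genes are near-identical neighbours, and reads could be split between them.

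Of 12 ERR-type oxidative targets, 9 were lower and 0 higher, at a median of -0.99 (-0.46 with quantile normalisation), and 3 were not called by edgeR (Cs, Slc25a4 and Ckmt2). At an unadjusted p under 0.05 the count of higher genes was still 0, while quantile normalisation with limma gave 6 lower and 1 higher and library size alone 8 lower and 1 higher. Uqcrfs1, the Rieske protein of complex III, went from 1977 ± 40.2 to 743 ± 117 CPM (-1.41, adjusted p = 6.85e-05). Slc25a4, the ADP/ATP carrier, showed a log2 fold change of -0.35 (adjusted p = 0.103). Ckmt2, a creatine kinase also found in muscle, had 2.08 (adjusted p = 0.101) at a mean of 2.28 CPM in Letmd1 KO BAT. Of 6 tested white adipocyte markers, 3 were higher, next to 23.7% of all genes, and 0 lower by edgeR (also 0 lower at an unadjusted p under 0.05 and with quantile normalisation), and 1 was higher with the muscle covariate. The log2 fold changes were 2.09 for Nnat (adjusted p = 0.000399), 1.79 for Retn (adjusted p = 0.0249), 0.11 for Slc7a10 (adjusted p = 0.787) and 0.33 for Agt (adjusted p = 0.684). Retn, the resistin gene, was at 90.9, 396 and 74.6 CPM in KO mice 1, 2 and 3, so KO mouse 2 set most of its mean. Hoxc10, Wt1 and Tcf21 of this list had 0 counts in every library.

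**Figure D4:**
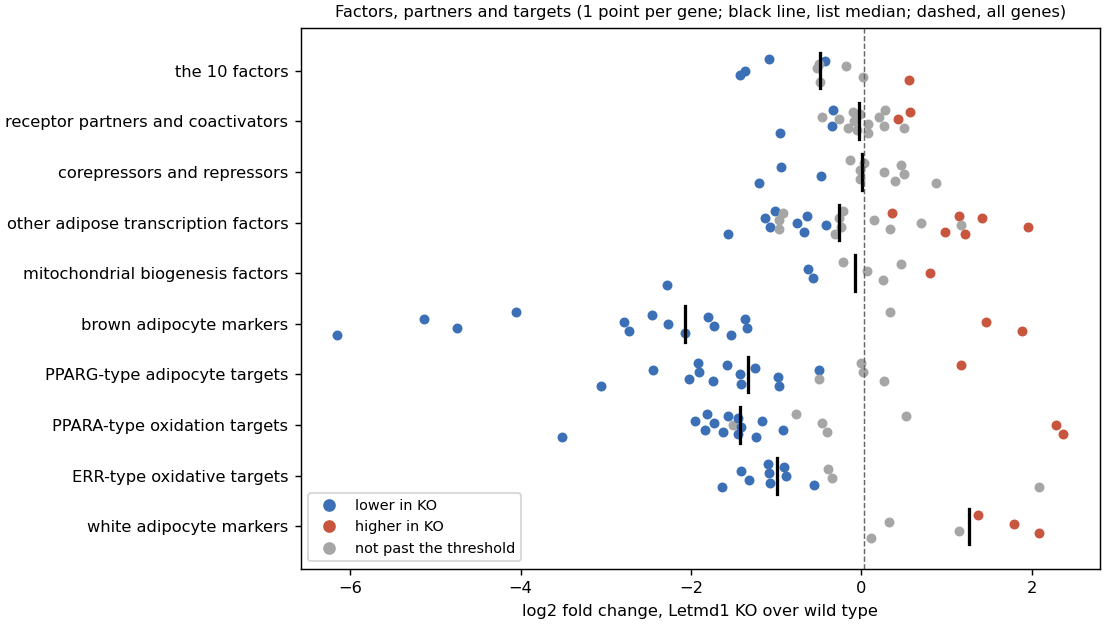
Log2 fold change, Letmd1 KO over wild type, of each gene tested among the 10 factors and 9 lists of partners, targets and markers, coloured by call, with a black line at each list's median and a dashed line at the median of all genes. Under TMM scaling the median of the 10 factors is -0.49, that of the partners -0.03, and those of the 4 lists of brown markers and targets lie between -2.07 and -0.99.

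Some genes ran closely with Cebpa and Zfp516, the factors with the lowest and highest log2 fold change under TMM scaling. Over the 6 mice, the log2 CPM of Cebpa was most alike to Abcc10 (Pearson r = 0.9977), Gzf1 (0.9958) and Fmo1 (0.9955), with log2 fold changes of -1.17, -0.95 and -2.95. That of Zfp516 was most alike to 3110082I17Rik (0.9962), Cmss1 (0.9926) and Larp7 (0.9915), with log2 fold changes of 1.09, 0.95 and 0.77. The mice share the contrast of genotypes, so that 1360 of 10327 genes compared had r above 0.9 with Cebpa and 362 with Zfp516, and these values describe likeness only.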

How the data were processed

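QuantSeq 3′ mRNA libraries of BAT from 6 mice were aligned by the authors with Bowtie2, and the authors deposited 1 table of raw counts per gene for each library; bedtools and build mm10 are named in the submitters' processing notes without versions. Annotation and strand use are not given in the sources used here. Multiple mapping reads were counted by the authors, which can blur near-identical genes.

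The 6 count tables were joined by gene symbol. Genes were kept by edgeR's filterByExpr (minimum count 10, minimum total 15), and Letmd1 KO was compared with wild type by edgeR 4.0.16 (R 4.3.3) with TMM scaling and the quasi-likelihood test, adjusted by Benjamini-Hochberg over all 12995 genes. Adjusted p-values named without a tool are from this test, with a threshold of 0.05. Steps were tested on simulated data, where edgeR called 3 of 62 genes given a log2 change of 0.5, 36 of 65 given 1 and 58 of 67 given 2. Of 12473 genes given no change it called 7. Few genes were changed in that simulation, unlike the 46.0% called in these data. Levels are CPM, and log2 CPM used a prior count of 2.

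Named genes were the 10 factors, Letmd1, Ucp1, for each list its 2 lowest and 2 highest log2 fold changes and its most abundant gene, and for the factors with the lowest and highest fold change the 3 genes (mean of at least 50 counts) with the highest r. 1 gene that this rule names is not reported here. Nkg7, Cd4, S100b, Myl1, Hdac3, Ep300, Rxrb, Ncoa1, Cs, Trmt112, Hoxc10, Wt1 and Tcf21 were named after their values were seen. The factors and lists were chosen with earlier results of these data known. Alternatives were limma 3.58.1 with quantile normalisation, DESeq2 1.42.0, library size alone, relative log expression scaling, other filters, a muscle covariate, a replicate block and leaving out each mouse. Promoter sequences are from RefSeq (GRCm38.p6). Sequences of factors without an entry are not reported here.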

Additional observations from a re-analysis of the deposited data

How the results depend on the processing

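Prdm16, Cebpa and Ppargc1b stayed called lower in all 15 alternatives, over log2 ranges of -1.55 to -0.94, -1.67 to -1.01 and -1.22 to -0.66. The count of factors called was 3 with quantile normalisation and limma, 3 when a fold change of at least 2 was also asked for, 7 with DESeq2, and 4 to 7 on leaving out single mice. Over all genes, 5978 of 12995 were called in the main test, 5791 of 12995 with quantile normalisation and limma and 5884 of 15629 with DESeq2. The calls over all genes became 3532 with the muscle covariate, 3048 with a fold change of at least 2 and 4842 to 5868 on leaving out single mice. The log2 fold change of Ebf2 turned negative with DESeq2 (-0.00025) and ranged from -0.06 to 0.16 on leaving out single mice. That of Pparg turned positive with library size alone (0.25, against a median of 0.45 over all genes) and quantile normalisation (0.22). The cause was not tested.

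Library size alone gave 8 calls among the 18 receptor partners and coactivators and 8 among the 12 corepressors and repressors. Quantile normalisation gave 5 in the latter list. Over all 12995 genes these settings gave 7267 and 5791 calls. The muscle covariate was tried for the lists after seeing the data. With it the partners had 0 calls, the corepressors and repressors 1, the other transcription factors 7 and the white adipocyte markers 1. Over all genes it gave 3532 calls. Leaving out each mouse was also tried for the lists after seeing the data. It gave 1 to 4 calls among the partners and coactivators and 1 to 3 among the corepressors and repressors, next to 4842 to 5868 over all genes. The lists of brown markers and of PPARγ-, PPARα- and ERR-type targets had 14 to 14, 12 to 14, 13 to 17 and 9 to 11 genes called lower on leaving out single mice, and 12, 10, 13 and 8 with the muscle covariate. Over all genes, 2348 to 2869 were called lower on leaving out single mice and 1751 with the muscle covariate.

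Replicate numbers do not pair the mice by litter or day in the labels, and the deviations of same-numbered mice correlated at 0.129, -0.113 and -0.111. With the replicate number as a block, 7 factors were called, Ppara (-0.53, adjusted p = 0.0364) and Ppargc1a (-0.52, adjusted p = 0.024) among them, and 5599 genes over all. The best correlate of wild-type mouse 1 was KO mouse 1, that of wild-type mouse 2 was KO mouse 3 and that of wild-type mouse 3 was KO mouse 2.

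The log2 fold changes of Cebpa and Prdm16 differed by less than their standard errors, and their order turned with quantile normalisation (-1.14 and -1.31), with the muscle covariate (-1.11 and -1.53) and without wild-type mouse 3 (-1.30 and -1.43), KO mouse 1 (-1.30 and -1.55) or KO mouse 3 (-1.33 and -1.41). Esrrg rested on 58 to 188 counts per library.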
